A study of Homo sapiens with 12 samples.

Results

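The genes examined were 10 genes of cellular iron handling, namely TFRC, TFR2, STEAP3 and SLC11A2 (uptake), FTH1, FTL and NCOA4 (storage and its release), SLC40A1 (export), IREB2 (sensing) and HMOX1 (haem breakdown), out of 19923 genes counted in each library. They were taken by gene name, and the set was chosen by the measured TFRC responses, higher with STM2457 in both lines. The TFRC responses are therefore given as a description, without a test, and so is the difference between them. RNA came from SK-N-BE2 and NGP, human neuroblastoma lines with amplified MYCN that the labels give as wild type in genotype. Each line was kept for 6 days either with STM2457, an inhibitor of the RNA methyltransferase METTL3, or with DMSO, at 12 µM STM2457 in SK-N-BE2 and 1 µM in NGP. There were 3 replicates in each of the 4 groups and 12 libraries in all. Line, dose and sequencing run (0090 for SK-N-BE2 and 0070 for NGP in the file headers) changed together and cannot be told apart. Nothing in the labels says that replicates were separate cultures, so every p-value measures the spread between these libraries, which may be technical.

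Most cells take up iron as transferrin bound to the transferrin receptor TFRC, which carries it into endosomes, where ferric iron is reduced by STEAP3 and moved to the cytosol by SLC11A2 (DMT1). Iron that is not used is stored inside ferritin, a shell of FTH1 and FTL chains, is released when NCOA4 delivers ferritin for breakdown, and leaves the cell through SLC40A1 (ferroportin). IREB2 (IRP2) and ACO1 (IRP1) bind hairpins called iron-responsive elements when iron is scarce. A hairpin in the 5′ UTR of the ferritin and ferroportin messengers blocks their translation when bound, whereas hairpins in the 3′ UTR of the TFRC messenger protect it from decay when bound. Fast-growing tumours, neuroblastoma included, are known for a high demand for iron.

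The hairpins are shown because they are the sequence that ties the storage, export and uptake genes to iron sensing. They were located by script in the MANE Select transcripts as a C, any 5 bases, the loop CAGTGN and 5 bases that pair with the first 5 (G with T allowed), on the transcript strand only. Capitals mark the loop, and 29 bases are printed 5′ to 3′ with T for U, from GRCh38. The FTH1, FTL and SLC40A1 matches lie in exon 1 in the 5′ UTR (FTH1 at chr11:61967574-61967602, minus strand; FTL at chr19:48965335-48965363, plus strand; SLC40A1 at chr2:189580661-189580689, minus strand). The 4 TFRC matches lie in exon 19 in the 3′ UTR, minus strand, at chr3:196050979-196051007, chr3:196050575-196050603, chr3:196050510-196050538 and chr3:196050463-196050491, printed in the order of the transcript.
FTH1: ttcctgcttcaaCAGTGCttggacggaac
FTL: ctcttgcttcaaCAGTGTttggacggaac
SLC40A1: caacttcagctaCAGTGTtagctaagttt
TFRC, match 1: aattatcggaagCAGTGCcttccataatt
TFRC, match 2: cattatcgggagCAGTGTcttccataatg
TFRC, match 3: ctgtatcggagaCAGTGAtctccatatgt
TFRC, match 4: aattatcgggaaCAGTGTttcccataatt
Among 19061 MANE Select transcripts, 19 held a match in the 5′ UTR (0.0997%) and 121 in the 3′ UTR (0.635%), over UTRs of varied length (medians of 133 and 1059 bases). The other 6 genes held no match to these letters in those transcripts, and a hairpin of another shape would be missed by this search. A match describes the sequence and does not show that it was bound here.

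Libraries held between 47242379 and 58159937 counted reads. Levels are given as CPM, the reads of a gene scaled to the TMM-adjusted library size. The neuroblastoma markers PHOX2A, HAND2, GATA3, ISL1 and DBH were each found in every library, at 11.7 CPM (DBH in SK-N-BE2 with STM2457) to 981 CPM (HAND2 in NGP with STM2457). Markers of leukocytes summed to at most 7.76 CPM and those of red cells, which handle much iron, to at most 0.925 CPM. NGP DMSO replicate 1 stood farthest from its group, with a root mean square log2 deviation of 0.289 against 0.0781 to 0.207 for the other 11 libraries. It was the lowest of its group for TFRC, STEAP3, SLC11A2, NCOA4, SLC40A1 and IREB2 and the highest for FTH1, FTL and HMOX1, so NGP results are also given without it where that changes them. Reads of mitochondrially encoded genes made up 2.78% to 3.64% of the NGP DMSO libraries and 6.46% to 7.16% of the NGP STM2457 libraries, against 8.43% to 11.3% and 8.23% to 10.3% for SK-N-BE2, and their part in the results was not tested. Changes are relative to the library total. In bulk RNA, fewer cells that express a gene and less of its RNA per cell cannot be told apart.

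In SK-N-BE2 all 10 genes had enough reads to be tested by edgeR's quasi-likelihood test, with Benjamini-Hochberg adjustment over all genes. At an adjusted p under 0.05, 54.7% of 14013 tested genes were called. Of the 9 genes other than TFRC, 2 were called higher (SLC11A2 and IREB2), against 26.9% of all genes, and 3 lower (FTH1, FTL and HMOX1), against 27.8%. The treated and control libraries did not overlap for 6 of the 10, TFRC among them, against 62.2% of all genes. In NGP, 9 genes could be tested, since TFR2 had too few reads, and 41.7% of 13610 genes were called by the edgeR test. Of the 8 other than TFRC, 5 were called higher (FTL, SLC40A1, SLC11A2, NCOA4 and HMOX1), against 19.4% of all genes, and 1 lower (STEAP3), against 22.2%. The groups did not overlap for 7 of the 9, TFRC among them, against 54.7% of all genes. The median log2 fold change of the genes was 0.08 in SK-N-BE2, against -0.02 over all genes tested, and 0.45 in NGP, against -0.03. Nothing is read from these counts, because the same contrasts chose the set. The plot of levels in each library shows the values behind them, and the plot of responses the fold changes.

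**Figure D1:**
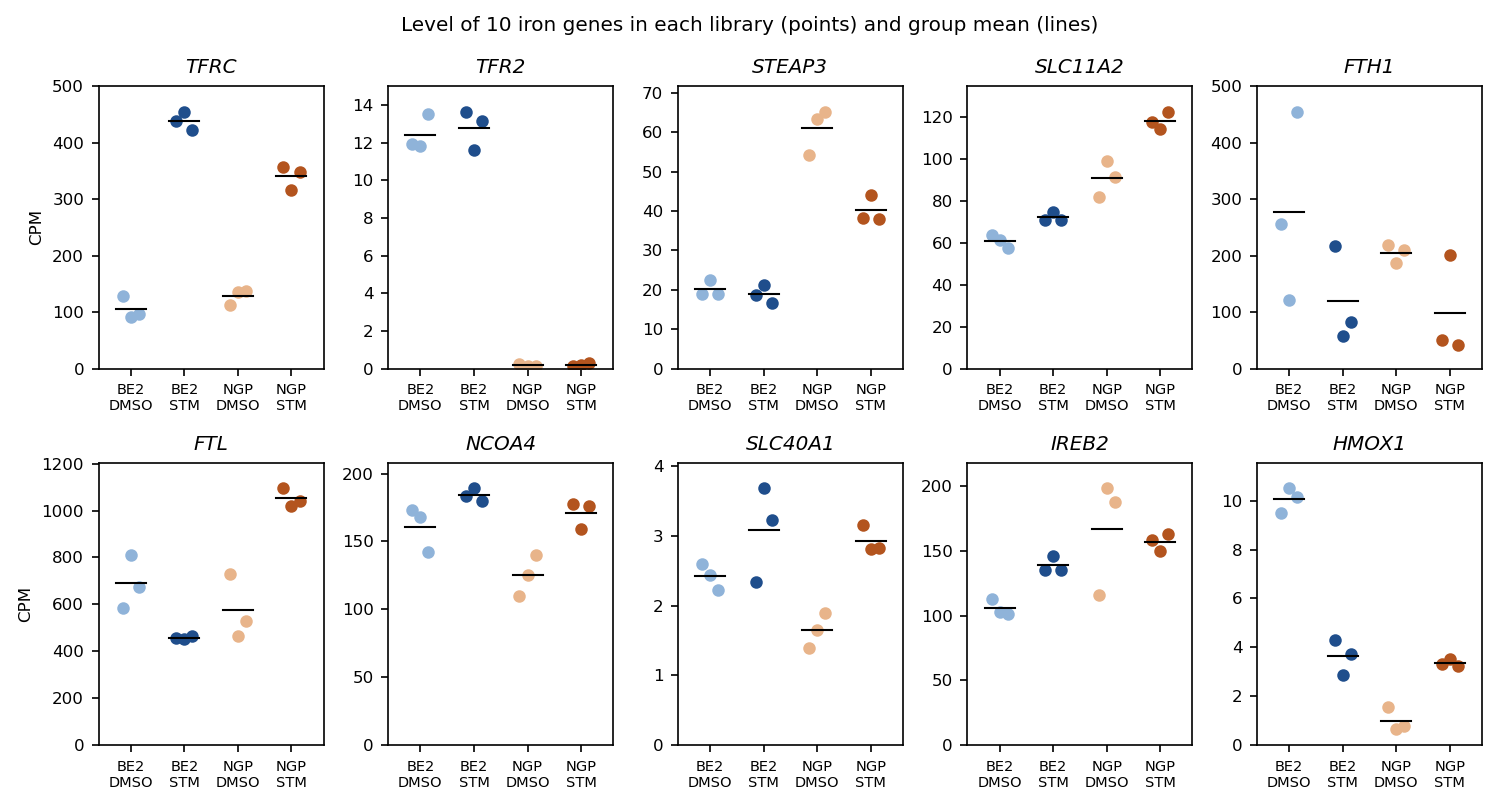
Level of each gene in CPM (vertical axes, each starting at 0) in the 12 libraries, grouped as SK-N-BE2 (BE2) and NGP with DMSO or STM2457 (STM); points are libraries and lines are group means. TFRC lay between 90.8 and 137 CPM in the DMSO libraries and between 317 and 455 CPM in the STM2457 libraries, whereas FTL and HMOX1 were lower with STM2457 in SK-N-BE2 and higher in NGP.

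**Figure D2:**
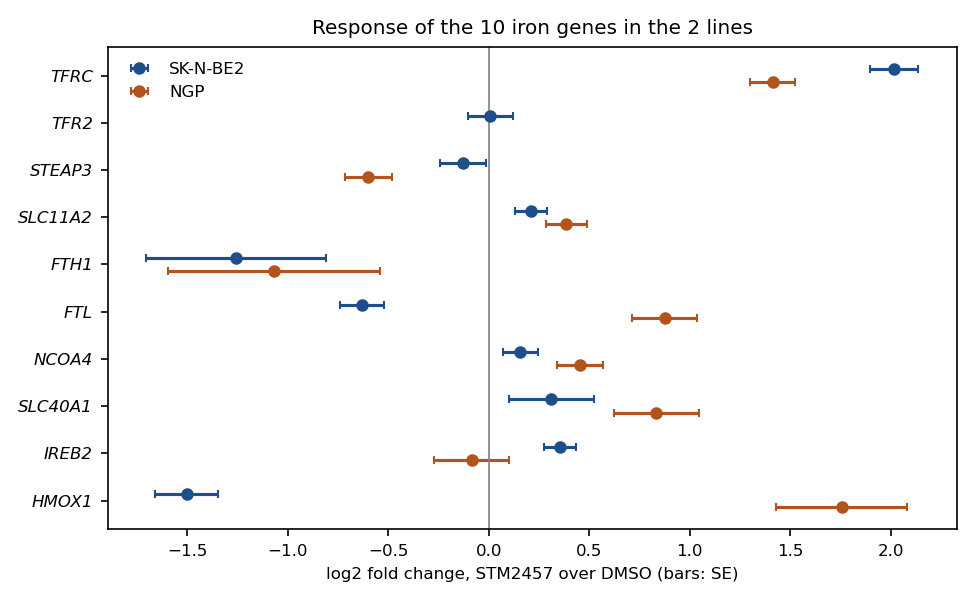
Log2 fold change with STM2457 over DMSO (horizontal axis) of each gene in SK-N-BE2 (blue) and NGP (orange), with bars of 1 SE from the edgeR fit; TFR2 was not tested in NGP. HMOX1 stood at -1.50 in SK-N-BE2 against 1.76 in NGP, and the widest bars are those of FTH1.

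TFRC (chromosome 3, 196027183 to 196082096, minus strand, GRCh38) encodes the receptor that brings transferrin-bound iron into the cell. In SK-N-BE2 it stood at 129, 90.8 and 96.9 CPM in the DMSO replicates and at 439, 455 and 422 CPM in the STM2457 replicates. In NGP it stood at 112, 136 and 137 CPM with DMSO and at 358, 317 and 349 CPM with STM2457. Every STM2457 library of a line lay above every DMSO library of that line, and the treated libraries of SK-N-BE2 lay above those of NGP. The ratio of group means was 4.15 in SK-N-BE2 and 2.66 for NGP. On the log2 scale the response was 2.02 (SE 0.12), which placed TFRC at rank 109 of 14013 genes ordered from the largest rise in SK-N-BE2. In NGP the response was 1.41 (SE 0.11), at rank 437 of 13610. The response in SK-N-BE2 exceeded that in NGP by 0.62 (SE 0.18). Without NGP DMSO replicate 1 the NGP response was 1.32.

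The genes whose pattern was most like that of TFRC were found by the root mean square difference of log2 CPM over the 12 libraries, after removing the mean of each line, among 9800 other genes of at least 10 CPM on average. Among the nearest were TIMELESS, a replication fork factor, at 0.132, VCAN, a matrix proteoglycan, at 0.148, ORC1, a subunit of the origin recognition complex, at 0.151, and XRCC2, a recombination repair protein, at 0.151. The median over all genes compared was 0.901. The log2 fold changes of these 4 genes lay between 1.81 (TIMELESS) and 2.28 (VCAN) in SK-N-BE2, and between 1.31 (ORC1) and 1.62 (XRCC2) in NGP.

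TFR2 (chromosome 7, 100620416 to 100642779, minus strand), a second transferrin receptor best known from liver and red cell precursors, was low in SK-N-BE2 and near the limit of detection in NGP. SK-N-BE2 had 11.9, 11.8 and 13.5 CPM with DMSO and at 13.6, 11.6 and 13.1 CPM with STM2457, and these groups overlapped. Its log2 fold change there was 0.01 (SE 0.11, adjusted p by edgeR 0.963). In NGP it had 11, 8 and 8 reads with DMSO and 6, 8 and 15 reads with STM2457, or 0.178 ± 0.0356 and 0.195 ± 0.0852 CPM (SD, n = 3). These NGP levels lie near the 0.0527 to 0.0635 CPM to which 3 reads correspond, so a change with treatment was not detectable at this depth.

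STEAP3 (chromosome 2, 119223831 to 119265652, plus strand), the reductase of the transferrin endosome, fell in NGP and missed the threshold in SK-N-BE2. NGP had 54.2, 63.5 and 65.2 CPM with DMSO and at 38.3, 44.2 and 38.0 CPM with STM2457, so the groups did not overlap. That is a log2 fold change of -0.60 (SE 0.12, adjusted p by edgeR 0.00414). The SK-N-BE2 libraries held 19.0, 22.4 and 18.8 CPM with DMSO and at 18.6, 21.2 and 16.7 CPM with STM2457, with overlapping groups and a log2 difference of -0.13 (SE 0.12, adjusted p by edgeR 0.362). Exons of an antisense gene, STEAP3-AS1, cover 11.0% of the STEAP3 exon length in GENCODE 44, and counting used no strand, so reads of both cannot be told apart there.

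SLC11A2 (chromosome 12, 50979401 to 51028566, minus strand), the iron transporter of endosomes and the plasma membrane, was slightly higher with STM2457 in both lines. The NGP libraries held 81.9, 99.0 and 91.3 CPM with DMSO and at 118, 114 and 123 CPM with STM2457, a log2 fold change of 0.39 (SE 0.10, adjusted p by edgeR 0.0161). In SK-N-BE2 the libraries read 63.8, 61.5 and 57.4 CPM with DMSO and at 71.0, 74.7 and 70.7 CPM with STM2457, a log2 fold change of 0.21 (SE 0.08, adjusted p by edgeR 0.0408). Neither line had overlapping groups. Both calls were fragile. The SK-N-BE2 call was lost in 7 of 14 alternatives (edgeR adjusted p up to 0.142). These were upper-quartile scaling, no filter, the replicate block, and leaving out DMSO replicate 3 or any 1 of the STM2457 replicates. The NGP call was lost without DMSO replicate 3 or STM2457 replicate 1 or 3 (edgeR adjusted p up to 0.0799).

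FTL (chromosome 19, 48965309 to 48966879, plus strand), the light chain of ferritin that helps form the iron core, moved in opposite directions in the lines. In SK-N-BE2 it stood at 587, 810 and 676 CPM with DMSO and at 455, 454 and 465 CPM with STM2457. In NGP the libraries read 729, 465 and 530 CPM with DMSO and at 1096, 1021 and 1039 CPM with STM2457. All treated libraries lay below the controls in SK-N-BE2 and above them in NGP, and the treated replicates of each line lay close together. The ratio of group means was 1.51-fold lower in SK-N-BE2 (-0.63 on the log2 scale, SE 0.11, adjusted p by edgeR 0.000337) and 1.83-fold higher in NGP (0.87, SE 0.16, adjusted p by edgeR 0.00302). Both calls held under every alternative run, at -0.74 to -0.50 (SK-N-BE2) and 0.74 to 1.08 (NGP) on the log2 scale, the last without NGP DMSO replicate 1. GENCODE 44 names 16 processed pseudogenes after FTL. A copy of at least 95% identity covers 100% of its transcript, and reads that map to several places were not counted, so FTL levels are uncertain and low by an unknown amount.

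FTH1 (chromosome 11, 61959718 to 61967634, minus strand), the heavy chain of ferritin that oxidises iron for storage, had the widest spread between replicates of the 10 genes. SK-N-BE2 had 257, 122 and 455 CPM with DMSO and at 218, 57.6 and 82.0 CPM with STM2457. In NGP it stood at 218, 187 and 209 CPM with DMSO and at 49.6, 201 and 41.3 CPM with STM2457. The groups overlapped in both lines, through STM2457 replicate 1 in SK-N-BE2 and STM2457 replicate 2 in NGP. FTH1 fell by 1.26 (log2) in SK-N-BE2 (SE 0.45, adjusted p by edgeR 0.0286), and its log2 fold change of -1.07 in NGP was not called (SE 0.53, adjusted p by edgeR 0.136). The SK-N-BE2 call was lost with DESeq2 (adjusted p 0.168), in a joint edgeR fit of both lines (adjusted p 0.113), without DMSO replicate 3 (-0.70, edgeR adjusted p 0.220) and without STM2457 replicate 2 or 3. In NGP, FTH1 was called without STM2457 replicate 2 (-2.15, edgeR adjusted p 0.000201).

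The pooled standard deviation of log2 CPM within groups was 0.93 for FTH1, rank 7 of 9801 genes of at least 10 CPM on average, whose median was 0.148. The 6 other genes of the set that reached that level ran from 0.0857 (SLC11A2) to 0.222 (IREB2). Some genes with a spread as wide, picked after their values were seen, followed FTH1 from library to library. TMEM160, PCSK1N, TPGS1 and CCDC85B had the same order of replicates as FTH1 in all 4 groups, as had 303 of 9800 genes. In SK-N-BE2 DMSO replicate 3, FTH1 stood 0.91 above its group mean on the log2 scale and TMEM160 1.33 above. In NGP STM2457 replicate 2 they stood 1.44 and 1.78 above. FTL stood 0.02 below and 0.04 below its group means in those libraries. None of those 4 genes was called by the edgeR test in either line. The plot of deviations by library shows these values. The part of this shared deviation in the FTH1 response was not tested.

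**Figure D3:**
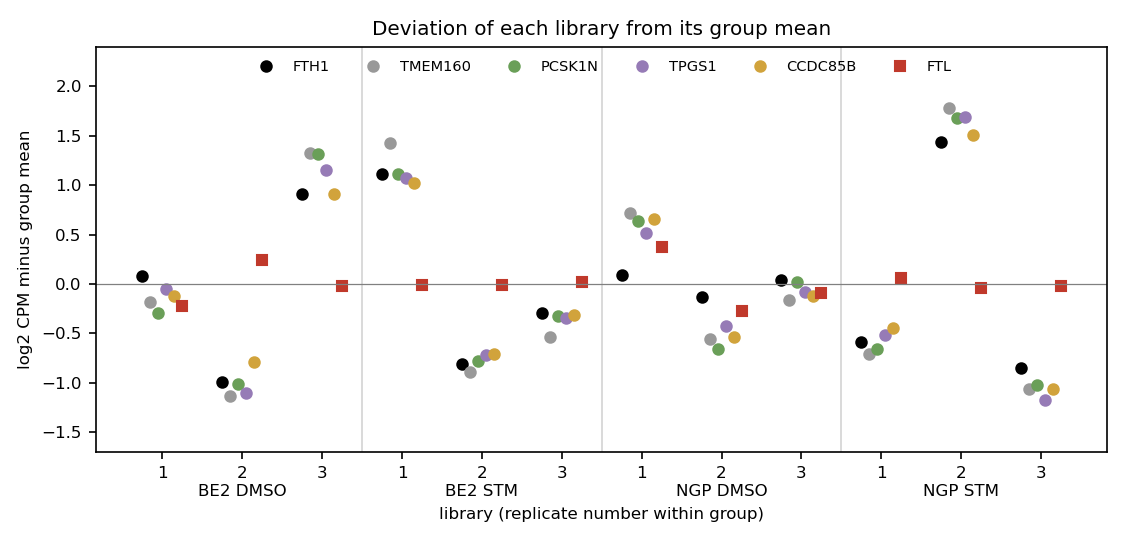
Deviation of log2 CPM from the group mean (vertical axis) in each library (horizontal axis, replicate number within SK-N-BE2, BE2, and NGP groups with DMSO or STM2457, STM) for FTH1, 4 genes chosen after their values were seen, and FTL; each point is 1 library. FTH1 and the 4 genes lie high together in NGP STM2457 replicate 2, FTH1 at 1.44, while FTL lies at -0.04.

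Only part of the FTH1 messenger could be counted. Its exons span 2004 bases in the deposited files, of which 1267 (63.2%) coincide with exons of BEST1, a chloride channel gene, on the other strand. With no strand option and no option to count overlaps, reads that touch the shared stretch overlap both genes and were not counted. The 737 bases outside it lie in 4 pieces, and the largest, 323 bases at chr11:61967312-61967634, holds the transcript start and the hairpin printed above. No other gene of the set shares exons with a counted gene. BEST1 itself fell in SK-N-BE2, from 8.15, 8.44 and 7.82 CPM with DMSO to 3.79, 3.06 and 3.43 CPM with STM2457 (log2 fold change -1.28, SE 0.14, adjusted p by edgeR 7.35e-06). In NGP it fell from 52.0, 44.4 and 46.2 CPM to 0.931, 0.988 and 0.911 CPM (-5.65, SE 0.14, adjusted p by edgeR 6.81e-07). FTH1 also has 25 pseudogenes named after it, 23 of them processed, and a copy of at least 95% identity covers 76.5% of its transcript. FTH1 levels are therefore low by an unknown amount and uncertain.

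The balance of the ferritin chains was followed as the FTH1 to FTL ratio of reads per kilobase within each library, which needs no scaling between libraries. In SK-N-BE2 it was 0.190, 0.0653 and 0.292 with DMSO and 0.208, 0.0551 and 0.0767 with STM2457. In NGP it was 0.130, 0.175 and 0.172 with DMSO and 0.0197, 0.0858 and 0.0173 with STM2457. The groups overlapped in SK-N-BE2 and did not overlap in NGP, where all treated libraries were lower. The mean changed by -0.0693 in SK-N-BE2 (two-sided exact permutation test, p = 0.6) and by -0.118 in NGP (two-sided exact permutation test, p = 0.1), and 0.1 is the smallest p that 3 libraries against 3 can give. Because FTH1 and FTL lose reads to copies and overlaps to different extents, the ratio is not the ratio of their messengers.

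NCOA4 (chromosome 10, 46005088 to 46030714, minus strand), the receptor that carries ferritin to the lysosome, rose in NGP. There it stood at 109, 125 and 140 CPM with DMSO and at 177, 159 and 176 CPM with STM2457, without overlap (log2 fold change 0.45, SE 0.11, adjusted p by edgeR 0.0129). The SK-N-BE2 libraries held 173, 168 and 142 CPM with DMSO and at 183, 189 and 180 CPM with STM2457. These groups did not overlap either, but the difference was not called (0.16, SE 0.09, adjusted p by edgeR 0.151). Leaving out STM2457 replicate 1 or 3 ended the NGP call (edgeR adjusted p 0.0630 and 0.0592). NCOA4 has 4 processed pseudogenes, and no stretch of its transcript had a copy of 95% identity.

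SLC40A1 (chromosome 2, 189560579 to 189583758, minus strand), the only known exporter of iron from cells, was low in both lines and rose in NGP. NGP had 1.39, 1.66 and 1.89 CPM with DMSO and at 3.15, 2.82 and 2.83 CPM with STM2457, with no overlap and a ratio of means of 1.78. The log2 fold change was 0.83 (SE 0.21, adjusted p by edgeR 0.0130), and leaving out STM2457 replicate 1 ended the call (edgeR adjusted p 0.0587). In SK-N-BE2 the libraries read 2.60, 2.44 and 2.22 CPM with DMSO and at 2.33, 3.69 and 3.22 CPM with STM2457, with overlap and a log2 fold change of 0.31 (SE 0.21, adjusted p by edgeR 0.233). These values rest on 70 to 188 reads per library.

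IREB2 (chromosome 15, 78437431 to 78501453, plus strand), the sensor that binds the hairpins, rose in SK-N-BE2 from 113, 103 and 101 CPM with DMSO to 135, 146 and 135 CPM with STM2457. The groups did not overlap, and the log2 fold change of 0.36 (SE 0.08, adjusted p by edgeR 0.00200) held under every alternative run. The NGP libraries held 116, 198 and 187 CPM with DMSO and at 158, 150 and 163 CPM with STM2457. DMSO replicate 1 lay below the treated libraries and the other DMSO replicates above them, and the log2 fold change of -0.09 was not called (SE 0.18, adjusted p by edgeR 0.737). Without DMSO replicate 1 IREB2 was called lower in NGP (-0.29, edgeR adjusted p 0.00358).

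HMOX1 (chromosome 22, 35380361 to 35394207, plus strand), the inducible haem oxygenase that frees iron from haem, fell in SK-N-BE2 and rose in NGP. In SK-N-BE2 it stood at 9.50, 10.5 and 10.1 CPM with DMSO and at 4.29, 2.88 and 3.72 CPM with STM2457. In NGP the libraries read 1.55, 0.651 and 0.781 CPM with DMSO and at 3.30, 3.53 and 3.24 CPM with STM2457. The groups did not overlap in either line, and the treated libraries of both lines came to lie in the same range. In SK-N-BE2 the mean was 2.77-fold lower (log2 fold change -1.50, SE 0.16, adjusted p by edgeR 3.90e-06). In NGP it was 3.38-fold higher (1.76, SE 0.33, adjusted p by edgeR 0.00321), on 33 to 78 reads per DMSO library and 156 to 168 per STM2457 library. Both calls held under every alternative run, at -1.64 to -1.36 (SK-N-BE2) and 1.53 to 2.23 (NGP) on the log2 scale.

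Compared per length of exon, as RPKM (CPM divided by the exon length in kilobases), FTL had the highest values of the genes in all 4 groups, with means from 526 to 1208 RPKM, and FTH1 was next with 48.6 to 139 RPKM. The FTH1 length of 2004 bases includes the 1267 where reads were not counted, and both ferritin genes lose reads to copies. Their RPKM values are therefore low by unknown amounts, and their places in this order are uncertain. With DMSO, NCOA4 followed (39.5 RPKM in SK-N-BE2 against 30.7 in NGP) and then TFRC (13.6 and 16.5 RPKM). With STM2457, TFRC stood at 56.3 RPKM in SK-N-BE2 and 43.8 RPKM in NGP, above NCOA4 in mean (45.1 and 41.9 RPKM) and within the spread of FTH1. The TFRC and NCOA4 libraries did not overlap in SK-N-BE2 and did overlap in NGP. In the DMSO libraries of SK-N-BE2 the order went on with IREB2 (9.79 RPKM), SLC11A2 (6.16), STEAP3 (4.40), HMOX1 (4.37), TFR2 (2.45) and SLC40A1 (0.559), and only STEAP3 and HMOX1 overlapped as neighbours. In those of NGP it went on with IREB2 (15.5 RPKM), STEAP3 (13.4), SLC11A2 (9.17), HMOX1 (0.433), SLC40A1 (0.381) and TFR2 (0.0351). There TFRC overlapped IREB2, IREB2 overlapped STEAP3, and HMOX1 overlapped SLC40A1.

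The control libraries of the lines were compared to see how their iron genes differ without the inhibitor. The choice of the set did not use this contrast, but the same DMSO libraries enter the TFRC responses that chose it. The TFRC difference between the controls is therefore not independent of that choice. With SK-N-BE2 taken minus NGP, 7 of 10 genes were called by edgeR, 4 higher (TFR2, HMOX1, SLC40A1 and NCOA4) and 3 lower (STEAP3, IREB2 and SLC11A2), where 71.1% of 14731 genes were called, 35.7% higher and 35.4% lower. The libraries of the same 7 genes did not overlap between the lines, against 68.9% of all genes. Both shares are close to the background. TFR2 differed most, by 6.11 on the log2 scale (SE 0.24, adjusted p by edgeR 1.98e-11), from 12.4 ± 0.949 CPM in SK-N-BE2 to 0.178 ± 0.0356 CPM in NGP (SD, n = 3). HMOX1 was higher in SK-N-BE2 by 3.33 (SE 0.27, adjusted p by edgeR 5.00e-08), at 10.1 ± 0.510 against 0.994 ± 0.487 CPM. STEAP3 was lower by 1.60 (log2 difference -1.60, SE 0.12, adjusted p by edgeR 2.32e-08), at 20.1 ± 2.01 against 61.0 ± 5.91 CPM. Smaller differences were called for IREB2 (-0.66, SE 0.15), SLC11A2 (-0.57, SE 0.09), SLC40A1 (0.55, SE 0.21) and NCOA4 (0.36, SE 0.10), with edgeR adjusted p of 0.00117, 3.23e-05, 0.0318 and 0.00546. The SLC40A1 call was lost without SK-N-BE2 DMSO replicate 1 or NGP DMSO replicate 1 or 2 (edgeR adjusted p up to 0.0824).

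TFRC, FTL and FTH1 were not called between the control groups. The TFRC difference was -0.28 (SE 0.12, adjusted p by edgeR 0.0563), from 106 ± 20.8 CPM in SK-N-BE2 against 128 ± 14.2 CPM in NGP (SD, n = 3), and it was called without SK-N-BE2 DMSO replicate 1 (edgeR adjusted p 0.00404) or NGP DMSO replicate 1 (0.0142). The FTL difference was 0.26 (SE 0.15, adjusted p by edgeR 0.121), and it too was called without either of these libraries (0.0302 and 0.000881). The FTH1 difference was 0.44 (SE 0.59, adjusted p by edgeR 0.516).

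Whether the lines responded differently was tested as the SK-N-BE2 response minus the NGP response over all 12 libraries. Among the 9 genes other than TFRC, 3 were called by edgeR, 1 higher and 2 lower, where 30.9% of 14731 genes were called, 17.0% higher and 13.9% lower. HMOX1 differed by -3.25 (SE 0.36, adjusted p by edgeR 1.84e-05) and FTL by -1.49 (SE 0.21, adjusted p by edgeR 0.000129), each lower with STM2457 in 3 of 3 libraries of SK-N-BE2 and higher in 3 of 3 of NGP. Both calls held under every alternative run, at -3.74 to -3.02 for HMOX1 and -1.72 to -1.36 for FTL. STEAP3 differed by 0.48 (SE 0.17, adjusted p by edgeR 0.0419), a call that was lost with upper-quartile scaling (0.0659) and in 8 of 12 fits without a single library (up to 0.116). The other 6 genes were not called: IREB2 at 0.45 (SE 0.21), SLC40A1 at -0.51 (SE 0.30), NCOA4 at -0.28 (SE 0.14), FTH1 at -0.18 (SE 0.84), SLC11A2 at -0.17 (SE 0.12) and TFR2 at -0.14 (SE 0.38). IREB2 was called without NGP DMSO replicate 1 (0.64, edgeR adjusted p 0.000184).

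The rest of the iron pathway was followed in 5 lists of 53 genes. In SK-N-BE2, 42 could be tested, of which 11 rose, 16 fell and 15 were not called by edgeR, where 26.9% of all genes rose and 27.8% fell, with a median log2 fold change of -0.05 against -0.02 over all genes. In NGP, 37 could be tested, of which 10 rose, 9 fell and 18 were not called, where 19.4% of all genes rose and 22.2% fell, with a median of -0.02 against -0.03. With so few genes in a list, the counts below describe these genes and nothing is read from them about a list. The plot of the other iron genes shows them by list.

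**Figure D4:**
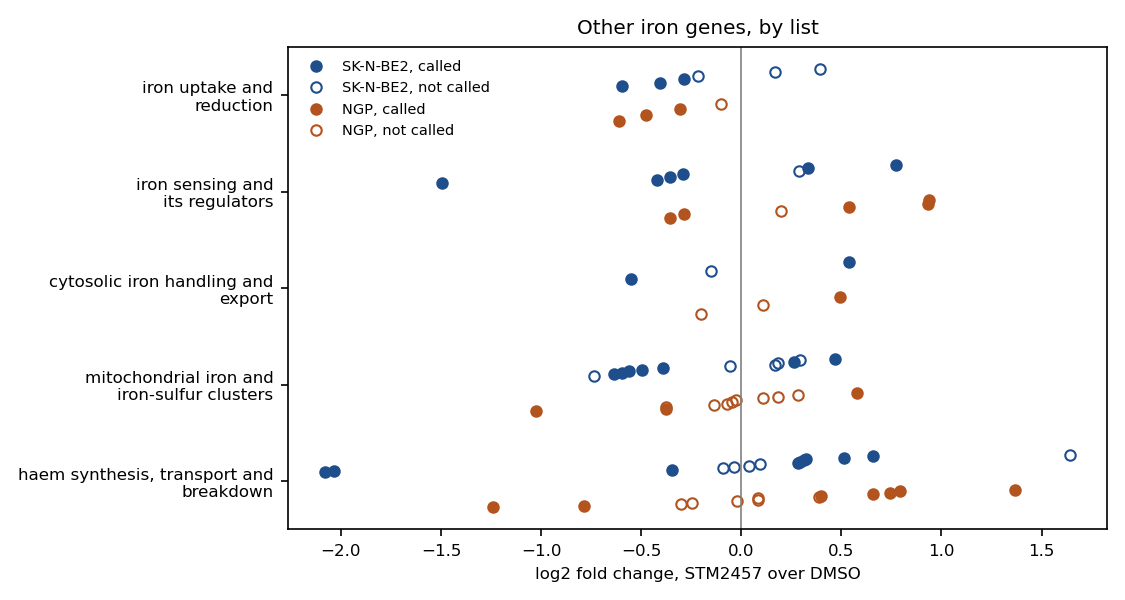
Log2 fold change with STM2457 over DMSO (horizontal axis) of each tested gene of 5 lists of other iron genes (rows) in SK-N-BE2 (blue, upper in each row) and NGP (orange, lower); filled points were called by edgeR at an adjusted p under 0.05. The lowest filled orange point of the haem list is SLC48A1, at -1.24.

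Among genes of iron uptake and reduction other than the set, none was called higher and 3 were called lower in each line, of 6 tested for SK-N-BE2 (27.8% of all genes fell there) and 4 for NGP (22.2%). MELTF, which encodes melanotransferrin, fell in both (log2 fold change -0.41 in SK-N-BE2, where edgeR gave an adjusted p of 0.0112, and -0.61 in NGP, where it gave 0.00592). The metal importer SLC39A14 also fell in both (-0.47, SE 0.12, adjusted p by edgeR 0.0144 for NGP, and -0.28, SE 0.09, adjusted p 0.0124 for SK-N-BE2). Its relative SLC39A8 fell in SK-N-BE2 (-0.59, SE 0.11, adjusted p by edgeR 0.000559) and was at -0.10 in NGP (adjusted p by edgeR 0.479). Among genes of iron sensing, 2 rose and 4 fell of 7 tested in SK-N-BE2, and 3 rose and 2 fell of 6 tested in NGP, against 54.7% and 41.7% of all genes called in either direction. ACO1, the other hairpin-binding sensor, rose in both lines, by 0.54 in NGP (SE 0.11, adjusted p by edgeR 0.00491) and 0.34 in SK-N-BE2 (SE 0.10, adjusted p by edgeR 0.0144). EPAS1, a hypoxia-inducible factor whose messenger carries an iron-responsive element, also rose in both, by 0.93 in NGP (SE 0.19, adjusted p by edgeR 0.00553) and 0.77 in SK-N-BE2 (SE 0.14, adjusted p by edgeR 0.000511). The difference between responses was not called for either. BACH1, the haem-sensitive repressor of HMOX1, fell by 0.35 (log2) in SK-N-BE2 (SE 0.11, adjusted p by edgeR 0.0129) and was at 0.20 in NGP (SE 0.17, adjusted p by edgeR 0.381). NFE2L2 (NRF2), an activator of HMOX1, fell in both lines, by 0.42 in SK-N-BE2 (SE 0.09, adjusted p by edgeR 0.00137) and by 0.29 in NGP (SE 0.10, adjusted p by edgeR 0.0437). Whether BACH1 or NFE2L2 had a part in the HMOX1 responses was not tested. NFE2L2 shares 18.7% of its exon length with another gene on its strand and is uncertain.

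In the haem list, 6 rose and 3 fell of 14 tested in SK-N-BE2, and 5 rose and 2 fell of 13 tested in NGP, where 26.9% and 27.8% of all genes did so in the first line, and 19.4% and 22.2% in the second. SLC48A1 (HRG1), which exports haem from the lysosome, fell in both lines. It went from 170 ± 8.51 to 41.2 ± 3.48 CPM in SK-N-BE2, 4.12-fold lower (log2 fold change -2.08, SE 0.09, adjusted p by edgeR 1.34e-09), and from 41.5 ± 2.36 to 17.5 ± 0.914 CPM in NGP, 2.37-fold lower (-1.24, SE 0.11, adjusted p by edgeR 7.25e-05). BLVRA, which reduces the biliverdin that haem oxygenase makes, rose in both lines, from 23.3 ± 6.76 to 59.9 ± 2.62 CPM in NGP (1.37, SE 0.19, adjusted p by edgeR 0.000762) and from 38.7 ± 6.83 to 56.7 ± 5.25 CPM in SK-N-BE2 (0.52, SE 0.12, adjusted p by edgeR 0.00264). BLVRB, of the same list but under the 10 CPM set for naming, fell in SK-N-BE2 from 5.02 to 1.26 CPM (-2.03, SE 0.21, adjusted p by edgeR 3.05e-06). In NGP BLVRB was at 0.39 and was not called (adjusted p by edgeR 0.378). HMOX2, the constitutive haem oxygenase, rose by 0.66 in each line (SE 0.12, adjusted p by edgeR 0.000316 for SK-N-BE2, and SE 0.15, adjusted p 0.00870 for NGP), and the responses differed by 0.01 (SE 0.20, adjusted p by edgeR 0.988).

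In the list of mitochondrial iron and iron-sulfur clusters, 2 rose and 5 fell of 12 tested in SK-N-BE2, and 1 rose and 2 fell of 11 tested in NGP, where 54.7% and 41.7% of all genes were called. In SK-N-BE2 the importer SLC25A28 (mitoferrin-2) fell by 0.63 (log2) (SE 0.12, adjusted p by edgeR 0.000439) and the cluster scaffold ISCU by 0.56 (SE 0.08, adjusted p by edgeR 5.46e-05). In NGP they were at -0.05 and -0.37 and were not called (adjusted p by edgeR 0.866 and 0.0701). The cochaperone HSCB fell in both lines, by 1.03 in NGP (SE 0.21, adjusted p by edgeR 0.00487) and by 0.60 in SK-N-BE2 (SE 0.14, adjusted p by edgeR 0.00306), with 20.2% of its exon length covered by a gene on the other strand. The sulfur donor NFS1 rose in NGP by 0.58 (SE 0.13, adjusted p by edgeR 0.00804) and fell in SK-N-BE2 by 0.39 (SE 0.11, adjusted p by edgeR 0.00942), and the responses differed by -0.96 (SE 0.17, adjusted p by edgeR 0.000949). Of the 3 cytosolic genes tested, 1 rose in each line and 1 fell in SK-N-BE2. Over all genes, 26.9% rose and 27.8% fell in SK-N-BE2, and 19.4% rose and 22.2% fell in NGP. HERC2, a ubiquitin ligase that targets NCOA4, was the one that rose in both (0.54, SE 0.12, adjusted p by edgeR 0.00218, and 0.49, SE 0.16, adjusted p 0.0363). Partial genomic copies of HERC2 make its counts uncertain. The iron chaperone PCBP2 fell in SK-N-BE2 by 0.55 (SE 0.09, adjusted p by edgeR 0.000155) and was at -0.20 in NGP (adjusted p by edgeR 0.106), with overlaps that make it uncertain.

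METTL3 methylates adenosines in a short motif of which GGACT is a favoured form, so the motif was counted on the transcript strand of each MANE Select transcript. TFRC held 6 copies (1.20 per kilobase), SLC11A2 held 6 (1.45), FTH1 held 2 (1.66), FTL held 1 (1.15), TFR2 held 3 (1.04) and STEAP3 held 4 (0.939). NCOA4 held 3 (0.867 per kilobase), IREB2 held 4 (0.633), SLC40A1 held 2 (0.601) and HMOX1 held 0. Over 19061 transcripts the median was 0.924 per kilobase and 88.5% held at least 1. The letters do not show that a site was methylated, and methylation was not measured by these libraries.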

How the data were processed

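Polyadenylated RNA was purified and made into SMART cDNA libraries, per the labels' protocols. The authors deposited raw counts (whole reads per gene), which featureCounts 2.0.5 made from paired-end alignments over the exons of each gene name (GENCODE 33 protein-coding genes, GRCh38), without strand, multi-mapping or overlap options and without counting of pairs, per the file headers. A fragment can therefore add up to 2 to a count, and 72.1% to 75.4% of counts from 1 to 20 were even. FastQC 0.11.5, Trimmomatic 0.36, HISAT2 2.1.0 and Subread 1.5.3 are listed, with no role, per the submitters' processing notes.

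Groups came from the sample titles. Each line was fitted on its 6 libraries, and differences between lines as contrasts of 4 group means on all 12, with edgeR 4.0.16 in R 4.3.3 (filterByExpr, minimum count 10; TMM; quasi-likelihood test; Benjamini-Hochberg over all genes tested; threshold 0.05). SE is the absolute log2 fold change over the root of F. CPM used the TMM scale of all libraries, and RPKM the exon length in the files. The members and lists were chosen with earlier results of these data known, and none of the counts over them is independent support. The members are always named. From each other list, up to 2 called genes per line with the largest change, groups that did not overlap and a mean of 10 CPM or more in the higher one were named, and the 5 genes most like TFRC, and some genes that these rules name are not reported here. Hairpins and motifs were searched in GENCODE 44 transcripts, and copies of at least 85% identity with BLAST on GRCh38. Alternatives were DESeq2 size factors, upper-quartile factors, a filter at a mean of 1 CPM, no filter, DESeq2 1.42.0, counts halved, leaving out each library, a replicate block and a joint fit.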

Additional observations from a re-analysis of the deposited data

Results flagged for a closer look

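For 3 genes the responses of the lines differed by a test of the difference itself (SK-N-BE2 response minus NGP response, edgeR quasi-likelihood test over 12 libraries, log2 scale). The difference was -3.25 for HMOX1 (edgeR adjusted p 1.84e-05) and -1.49 for FTL (edgeR adjusted p 0.000129), with each gene moving in opposite directions in all libraries of the lines. For STEAP3 it was 0.48 (edgeR adjusted p 0.0419), lower with STM2457 in 3 of 3 NGP libraries and overlapping the controls in SK-N-BE2. Line, dose and sequencing run cannot be told apart in these differences.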

How the results depend on the processing

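Over the 35 results for the 9 genes other than TFRC, whose baseline difference is described above, 580 alternative values were computed, of which 528 kept the direction and side of the threshold, 31 lost the call, 6 gained it and 15 changed sign. Genes other than TFRC called higher in SK-N-BE2 numbered 1 instead of 2 with upper-quartile factors, with no filter and with the replicate block, and 1 to 2 without single libraries. In NGP those called higher numbered 2 to 5 without single libraries, against 5, and those called lower numbered 2 with the replicate block and 1 to 2 without single libraries, against 1. For the difference between responses, those called higher numbered 0 with upper-quartile factors and 0 to 2 without single libraries, against 1. The sign changes were all in results that were not called. TFR2 in SK-N-BE2 went to -0.0446 with upper-quartile factors, to -0.000232 with a mean of at least 1 CPM and to -0.0397 to 0.0717 without single libraries. IREB2 in NGP went to 0.0542 without DMSO replicate 2 and to 0.00 without DMSO replicate 3 (range without single libraries -0.29 to 0.0542). The FTH1 baseline difference went to -0.0873 without SK-N-BE2 DMSO replicate 3 (range without single libraries -0.0873 to 0.82). In the difference between responses TFR2 went to 0.28 without NGP STM2457 replicate 3 (range -0.36 to 0.28), and FTH1 to 0.21 with the replicate block, 0.36 without SK-N-BE2 DMSO replicate 3, 0.16 and 0.03 without SK-N-BE2 STM2457 replicates 2 and 3, and 0.93 without NGP STM2457 replicate 2 (range -0.95 to 0.93). The cause was not tested. Deviations of same-numbered libraries from their group means had correlations of -0.14, 0.13 and 0.00 for SK-N-BE2, then 0.00, -0.14 and 0.07 for NGP. The labels do not say whether the numbers pair libraries. With 3 libraries per group these correlations cannot decide it. With the replicate block FTH1 was called in NGP (-1.49, edgeR adjusted p 0.0294), SLC11A2 was no longer called in SK-N-BE2 (adjusted p 0.0608) nor SLC40A1 between the control groups (0.0565). Depth limits TFR2 in NGP, and 3 replicates per group limit the rest.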
